A study of Mus musculus with 6 samples.

Results

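p53, encoded by Trp53, and 9 of its classical target genes (Mdm2, Cdkn1a, Ccng1, Phlda3, Bax, Bbc3, Pmaip1, Gdf15 and Sesn2) were followed in MC38 tumors that were treated with vehicle or with the manganese nanozyme Mn-N/C. The 10 genes are a list of names with no threshold on a measured value, and all 10 were found among the 21958 genes of the deposited table. Each library is the bulk RNA of a tumor piece. MC38 is a mouse colon carcinoma line, grown here under the flank skin of male C57BL/6J mice, with the genotype labelled WT. Palpable tumors of the vehicle group received 50 µL of saline into the tumor every 3 days, and those of the Mn-N/C group received Mn-N/C at 70 mg/kg in the same volume and at the same interval. Mn-N/C is a catalyst made of single manganese atoms held in nitrogen-doped carbon, and it turns hydrogen peroxide into reactive oxygen species. The labels give a volume of 800 to 1000 mm³ at collection for tumors of both groups and name no day. Each group has 3 libraries. No source states whether each library came from its own animal, so the p-values measure the spread between these libraries, which may be technical.

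p53 is a transcription factor whose amount and activity are set mainly at the protein level. In unstressed cells MDM2, itself a product of a p53 target gene, ubiquitinates p53 and has it degraded. DNA damage, oxidative stress and other insults interrupt that loop, after which p53 binds response elements near its target genes and raises their transcription. The targets halt the cell cycle, limit growth signalling or open the mitochondrial route of apoptosis, and colon cancers often carry mutations of this pathway. A level of Trp53 RNA is therefore not a measure of p53 activity, and read counts per gene do not tell whether the Trp53 allele of these cells is mutated.

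The totals were 14988588 to 18961134 reads per library, and 12800 genes had enough reads to be tested. Values are given as read counts, as CPM, in which a count is set relative to the TMM-scaled total of its library, or, where levels of different genes are compared, as the deposited FPKM, which also divide by gene length. Of 9 colon epithelial markers only Cdh1 had enough reads for a test, Cdx1 and Cdx2 were at 0 in every library, and Epcam stayed at or under 0.956 CPM, so the labelled colon epithelial identity is barely visible in this RNA. Summed markers of skeletal muscle ran from 18.01 to 247.2 CPM in the vehicle libraries and reached 731 CPM in Mn-N/C replicate 2, against 34.8 and 12.4 CPM in Mn-N/C replicates 1 and 3. The 3 collagens among the fibroblast markers were likewise highest in Mn-N/C replicate 2, at a sum of 7756 CPM against 2968 to 5291 CPM in the other 5 libraries, while the other 6 fibroblast markers summed to 743.7 CPM there, within the range of the others (538.5 to 968.3 CPM). In bulk tissue, fewer cells of a type and less RNA per cell cannot be told apart.

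Under Mn-N/C, 9 of the 10 genes had a lower mean than under vehicle and only Bax had a higher one, with a median log2 fold change of -0.24 against 0.00 over all tested genes. None of the 10 passed the threshold of an adjusted p under 0.05 in edgeR's quasi-likelihood test with Benjamini-Hochberg adjustment, and neither did any of the 12800 tested genes (0.00% called). At an unadjusted p under 0.05 there were 2682 of all tested genes (11.1% lower and 9.82% higher) and 4 of the 10, all lower: Pmaip1, Mdm2, Cdkn1a and Sesn2. In 4 genes (Pmaip1, Mdm2, Cdkn1a and Phlda3) every Mn-N/C library lay below every vehicle library, a pattern seen in 12.1% of all tested genes (26.4% in either direction), and in none did every Mn-N/C library lie above. DESeq2, which called 8.91% of the genes to which it gave an adjusted p, called 1 of the 10, Pmaip1. It gave no adjusted p to Gdf15. The count of 4 at an unadjusted p under 0.05 became 2 (Mdm2 and Pmaip1) without vehicle replicate 3 or without Mn-N/C replicate 2, where the shares of all tested genes were 11.8% and 15.3%. The count of 4 without overlap became 7 without vehicle replicate 1 (all 7 lower) or without Mn-N/C replicate 3 (6 lower, and Bax higher). With fewer libraries the share of all tested genes without overlap was higher too, at 33.4% and 39.9%.

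**Figure D1:**
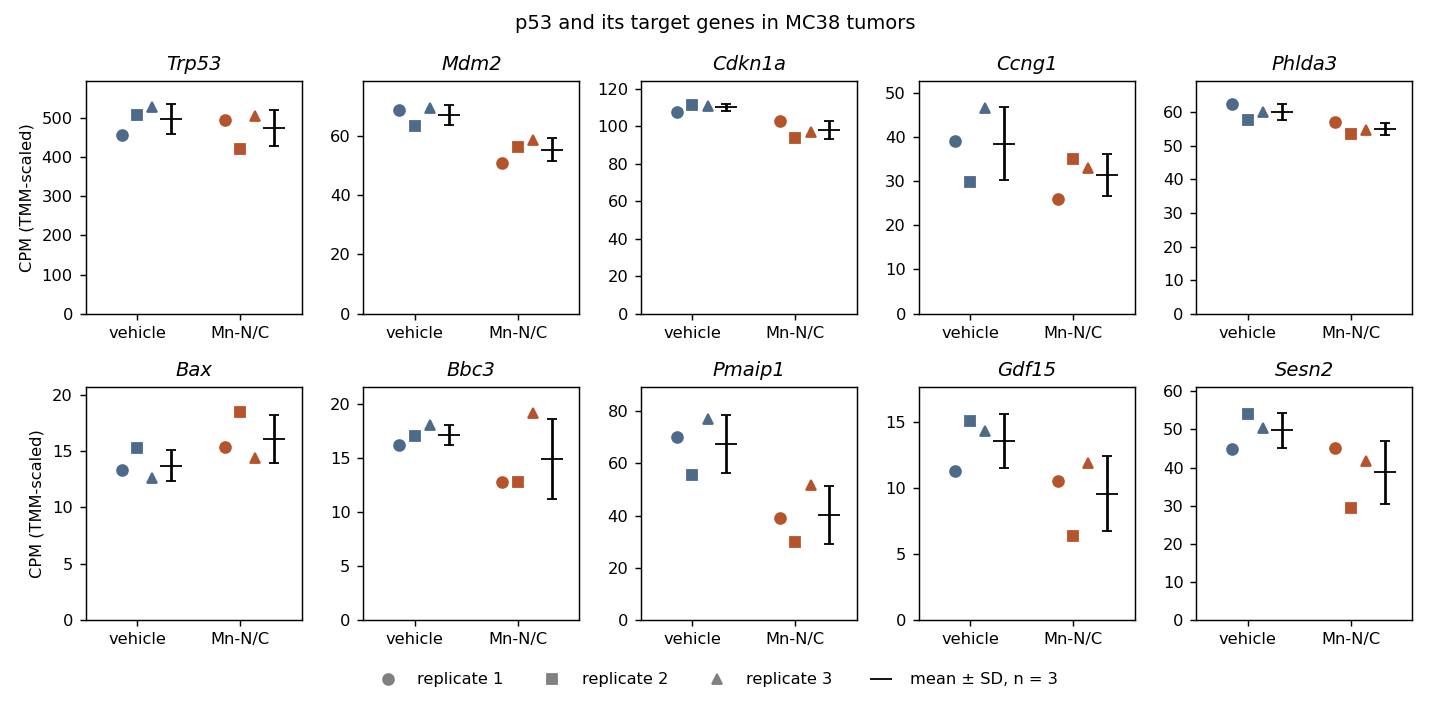
Level of each of the 10 genes in CPM (TMM-scaled, linear axes from 0) in the 3 vehicle and 3 Mn-N/C libraries, with symbols for the replicate number and bars for mean ± SD (n = 3). The 3 Mn-N/C libraries lie below the 3 vehicle libraries for Mdm2, Cdkn1a, Phlda3 and Pmaip1, and the groups overlap for the other 6 genes.

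Trp53 itself was the most abundant of the 10 and differed little between the groups. The vehicle libraries held 8595, 8289 and 7943 Trp53 reads and the Mn-N/C libraries 8069, 8015 and 8999. Scaled to CPM, the vehicle libraries (replicates 1, 2 and 3, the order used throughout) stood at 456.5, 507.6 and 529.1, and the Mn-N/C libraries at 494.7, 420.8 and 506.0. The groups overlapped: the highest library was vehicle replicate 3, the lowest was Mn-N/C replicate 2, and vehicle replicate 1 lay below the other Mn-N/C libraries. The means were 497.7 ± 37.3 CPM (SD, n = 3) and 473.8 ± 46.3 CPM (SD, n = 3). The log2 fold change was -0.07 (SE 0.0936, 95% interval -0.29 to 0.14, adjusted p = 0.702 in edgeR), and without Mn-N/C replicate 2 it was 0.01. Trp53 (ENSMUSG00000059552) is placed by the table on chromosome 11, from 69471185 to 69482699 on the plus strand. The mouse annotation holds 1 processed pseudogene of Trp53, and how reads shared with it were assigned is not given in the sources used here.

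Mdm2 encodes the ubiquitin ligase that keeps p53 low, and its own transcription is driven by p53, so it is often read as a gauge of the pathway. It stood at 68.57, 63.07 and 69.15 CPM in the vehicle libraries and at 50.88, 56.18 and 58.53 CPM in the Mn-N/C libraries. All 3 Mn-N/C libraries lay below all 3 vehicle libraries, with Mn-N/C replicate 1 the lowest. The mean went from 66.93 ± 3.35 CPM (SD, n = 3) under vehicle to 55.20 ± 3.92 CPM (SD, n = 3) under Mn-N/C, a ratio of 0.825. Its log2 fold change was -0.28 (SE 0.0837, 95% interval -0.47 to -0.09, unadjusted p = 0.0101, adjusted p = 0.182 in edgeR). DESeq2 gave an adjusted p of 0.0673, and leaving out each library in turn gave -0.32 to -0.22. Per 100 Trp53 reads there were 15.02, 12.43 and 13.07 Mdm2 reads in the vehicle libraries and 10.29, 13.35 and 11.57 in the Mn-N/C libraries, and on that scale the groups overlapped.

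Cdkn1a encodes p21, the inhibitor of cyclin-dependent kinases through which p53 halts the cell cycle. Its promoter is shown because Cdkn1a was the only one of the 9 genes with a tabled window to hold an exact p53 response element, a pair of decamers that each follow the p53 consensus and may stand 0 to 13 bases apart. The search covered the 300 bases around each RefSeq start (250 before and 50 after, GRCm38.p6). The consensus reads the same on both strands, so each match counts for both, and no other motif was searched. An exact element was found in 24 of 32851 such windows, or 0.0731%. The window of the upstream of the 2 Cdkn1a starts, at chr17:29090729-29091028 on the plus strand, follows with the decamers in capitals, 12 bases apart. Only the pair with the fewest mismatches at any allowed spacing is marked. Other pairs are not, among them the second decamer with the decamer right after it. In the window of the other Cdkn1a start the best pair had 5 mismatches. A single exact decamer, a looser criterion that includes exact elements, stood in a window of 5 genes (Cdkn1a, Ccng1, Bax, Mdm2 and Trp53) and in 8.36% of all windows. A match is a run of letters and not a shown binding site.
Cdkn1a upstream start: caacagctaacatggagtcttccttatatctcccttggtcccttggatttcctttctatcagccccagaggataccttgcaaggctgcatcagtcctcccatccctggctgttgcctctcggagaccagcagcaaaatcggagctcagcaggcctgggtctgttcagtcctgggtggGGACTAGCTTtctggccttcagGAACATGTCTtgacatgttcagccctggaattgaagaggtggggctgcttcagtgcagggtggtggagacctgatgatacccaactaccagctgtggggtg

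Cdkn1a read 107.8, 111.2 and 110.9 CPM in the vehicle libraries, and of the 10 genes Cdkn1a had the smallest vehicle SD relative to its mean (1.72%). It read 103.0, 93.87 and 97.10 CPM in the Mn-N/C libraries. Every Mn-N/C library was below every vehicle library. The means were 109.9 ± 1.89 CPM (SD, n = 3) and 97.99 ± 4.62 CPM (SD, n = 3), a ratio of 0.891. In edgeR the log2 fold change was -0.17 (SE 0.0695, 95% interval -0.33 to -0.01, unadjusted p = 0.0428, adjusted p = 0.226). Per 100 Trp53 reads there were 23.61, 21.91 and 20.95 Cdkn1a reads under vehicle and 20.82, 22.31 and 19.19 under Mn-N/C, so the separation seen in CPM was absent on that scale.

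Ccng1 encodes cyclin G1, an atypical cyclin that recruits a phosphatase to MDM2. Its promoter came next to that of Cdkn1a, with a full element at 1 mismatch and no spacer. Elements with at most 1 mismatch stood in 0.627% of all windows. The window, at chr11:40755237-40755536 on the minus strand, is printed with the element in capitals.
Ccng1: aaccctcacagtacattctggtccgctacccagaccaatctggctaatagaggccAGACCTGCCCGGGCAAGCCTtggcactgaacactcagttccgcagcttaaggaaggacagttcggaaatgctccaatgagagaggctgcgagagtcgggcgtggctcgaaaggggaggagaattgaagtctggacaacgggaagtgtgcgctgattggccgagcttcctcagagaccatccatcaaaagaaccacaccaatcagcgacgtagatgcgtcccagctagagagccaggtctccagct

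Its levels were 38.98, 29.88 and 46.50 CPM in the vehicle libraries and 25.99, 35.07 and 32.84 CPM in the Mn-N/C libraries. The groups overlapped, since vehicle replicate 2 lay below Mn-N/C replicates 2 and 3. On the log2 scale the fold change was -0.30 (SE 0.175, adjusted p = 0.359 in edgeR), and it was -0.14 without vehicle replicate 3, -0.18 without Mn-N/C replicate 1 and -0.43 without vehicle replicate 2. At 39.5% GC, Ccng1 is the most AT-rich of the 10 genes, and once each library's trend of reads on GC content was removed its log2 fold change was 0.14, on the other side of 0. Phlda3 encodes a small protein that competes with AKT for membrane lipids and so restrains AKT. It read 62.51, 57.69 and 60.16 CPM under vehicle and 57.07, 53.61 and 54.65 CPM under Mn-N/C. The groups did not overlap, but the nearest libraries, vehicle replicate 2 and Mn-N/C replicate 1, were less than 1 CPM apart. Its log2 fold change was -0.13 (SE 0.0732, 95% interval -0.29 to 0.04, adjusted p = 0.349 in edgeR).

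Among the death effectors, Bax was the only one of the 10 genes with a higher mean under Mn-N/C. It encodes the protein that forms pores in the mitochondrial outer membrane. Its promoter held a full element at 2 mismatches with a spacer of 1 base, where 4.09% of all windows held one at up to 2 mismatches, and the window at chr7:45466849-45467148 on the minus strand has that element in capitals.
Bax: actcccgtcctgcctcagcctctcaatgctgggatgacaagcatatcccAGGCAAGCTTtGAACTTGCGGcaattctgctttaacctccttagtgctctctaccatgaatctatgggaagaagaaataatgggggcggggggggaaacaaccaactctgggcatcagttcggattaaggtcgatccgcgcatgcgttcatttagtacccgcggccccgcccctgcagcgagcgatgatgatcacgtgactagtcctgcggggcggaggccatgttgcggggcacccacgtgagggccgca

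Bax read 13.28, 15.25 and 12.59 CPM in the vehicle libraries and 15.39, 18.48 and 14.34 CPM in the Mn-N/C libraries. The groups overlapped, because vehicle replicate 2 lay above Mn-N/C replicate 3, and the highest value was that of Mn-N/C replicate 2. The means were 13.71 ± 1.38 CPM (SD, n = 3) and 16.07 ± 2.15 CPM (SD, n = 3), and the log2 fold change was 0.23 (SE 0.145, 95% interval -0.10 to 0.56, adjusted p = 0.390 in edgeR). Without Mn-N/C replicate 2 it was 0.12. The counts behind these values were low, at 189 to 352 reads per library.

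Pmaip1 and Bbc3 encode NOXA and PUMA, BH3-only proteins that bind and neutralise the anti-apoptotic members of the BCL-2 family. Pmaip1 showed the widest difference of the 10 genes. It read 70.06, 55.36 and 77.14 CPM in the vehicle libraries and 39.23, 29.66 and 51.62 CPM in the Mn-N/C libraries, from 565 to 1319 reads per library. The highest Mn-N/C library, replicate 3, was just under the lowest vehicle library, replicate 2. The mean went from 67.52 ± 11.11 CPM (SD, n = 3) to 40.17 ± 11.01 CPM (SD, n = 3), a ratio of 0.595. The log2 fold change was -0.75 (SE 0.200, 95% interval -1.21 to -0.29, unadjusted p = 0.00528, adjusted p = 0.182 in edgeR), whereas DESeq2 gave an adjusted p of 0.0153. Leaving out each library in turn gave -0.97 to -0.57, and removing the GC trend gave -0.43, on the log2 scale. Per 100 Trp53 reads there were 15.35, 10.91 and 14.58 Pmaip1 reads under vehicle and 7.93, 7.05 and 10.20 under Mn-N/C, so the groups stayed apart on that scale too.

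Bbc3 read 16.20, 17.09 and 18.05 CPM under vehicle and 12.75, 12.81 and 19.23 CPM under Mn-N/C. The counts were low, at 208 to 342 reads per library. Mn-N/C replicates 1 and 2 lay below the vehicle libraries and replicate 3 above them, so that the Mn-N/C group (14.93 ± 3.72 CPM, SD, n = 3) was more spread than the vehicle group (17.11 ± 0.927 CPM, SD, n = 3). Its log2 fold change was -0.20 (SE 0.178, 95% interval -0.60 to 0.21, adjusted p = 0.558 in edgeR), and it was -0.42 without Mn-N/C replicate 3, -0.10 without replicate 1 and -0.09 without replicate 2 of that group.

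Gdf15 and Sesn2 report on stress more than on death. GDF15 is a secreted cytokine of the TGF-β superfamily, and sestrin 2 restrains mTORC1 and supports antioxidant defence. Gdf15 read 11.26, 15.06 and 14.32 CPM in the vehicle libraries and 10.48, 6.353 and 11.86 CPM in the Mn-N/C libraries. Its counts were low, at 121 to 246 reads per library. Mn-N/C replicate 2 was the lowest by far, Mn-N/C replicate 3 lay above vehicle replicate 1, and the groups overlapped. The log2 fold change was -0.50 (SE 0.239, 95% interval -1.05 to 0.05, adjusted p = 0.267 in edgeR), and it was -0.27 without Mn-N/C replicate 2. Sesn2 read 44.88, 53.95 and 50.36 CPM under vehicle and 45.12, 29.35 and 41.61 CPM under Mn-N/C. Here too Mn-N/C replicate 2 was the lowest, and the groups overlapped only through vehicle replicate 1, which lay just under Mn-N/C replicate 1. Its log2 fold change was -0.36 (SE 0.158, unadjusted p = 0.0493, adjusted p = 0.238 in edgeR), and -0.19 without Mn-N/C replicate 2.

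On the length-scaled FPKM, the order of levels over all 6 libraries was Trp53, Phlda3, Cdkn1a, Pmaip1, Sesn2, Mdm2, Ccng1, Bax, Bbc3 and Gdf15. Trp53 averaged 120 FPKM, above 97.7% of all tested genes, while Phlda3 averaged 37.0 FPKM and Cdkn1a 29.2 FPKM. Libraries of Trp53 (104.5 to 131 FPKM) did not overlap with those of Phlda3 (34.5 to 40.9 FPKM), nor did those of Phlda3 with Cdkn1a (26.5 to 31.2 FPKM). From there on neighbours overlapped: Pmaip1 ran from 10.9 to 28.3 FPKM, Sesn2 from 8.48 to 15.5, Mdm2 from 9.81 to 13.8 and Ccng1 from 7.25 to 13.3. Gdf15, at 6.24 FPKM, was above 48.7% of the tested genes. In CPM, the ratio of the highest to the lowest library went from 1.17 for Phlda3 to 2.60 for Pmaip1.

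**Figure D2:**
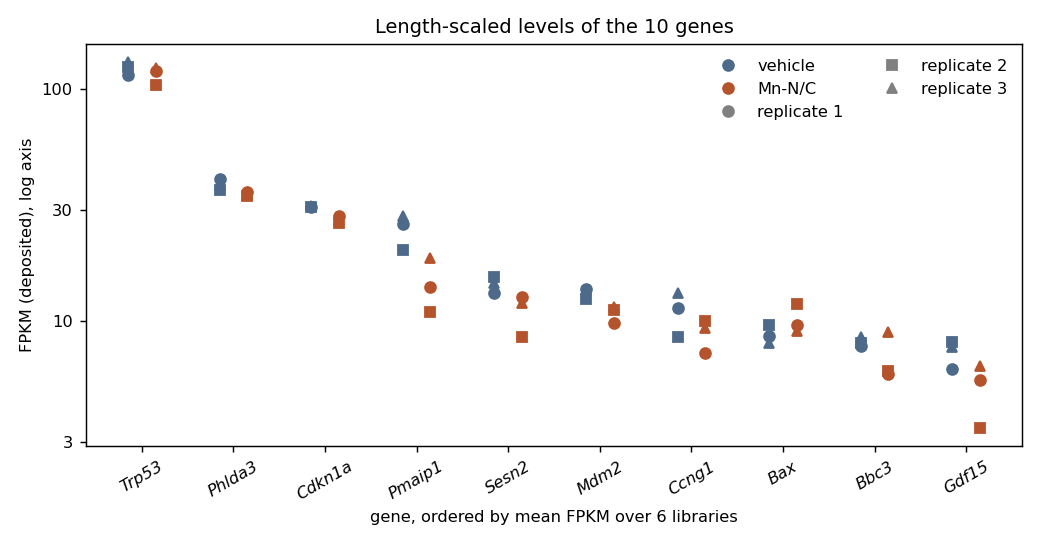
Deposited FPKM (log axis) of the 10 genes in each library, colored by group and with symbols for the replicate number, ordered by their mean over 6 libraries. Trp53 stands alone at 104.5 to 131 FPKM, and from Pmaip1 downward the ranges of neighbouring genes overlap.

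The 10 genes did not move as one block across libraries. Mn-N/C replicate 2 was the lowest of the 6 libraries in 6 genes (Trp53, Phlda3, Cdkn1a, Pmaip1, Sesn2 and Gdf15) and the highest in Bax. Its deviations from each gene's mean in log2 CPM were largest in Gdf15 (-0.80), Pmaip1 (-0.78) and Sesn2 (-0.56). Mn-N/C replicate 1 was the lowest in Mdm2, Ccng1 and Bbc3, with deviations of -0.25, -0.40 and -0.31. Vehicle replicate 3 held the highest value of 4 genes (Trp53, Pmaip1, Mdm2 and Ccng1). Mn-N/C replicate 2 is also the library highest in muscle markers and collagens, though not in the other fibroblast markers. It was highest too in summed markers of endothelium (194.6 CPM, others 105.9 to 183.8) and of colon epithelium (40.9 CPM, others 19.12 to 34.68). In immune, adipocyte and keratinocyte markers it was not the highest. The part of other cells in the low values of this library was not tested. Without Mn-N/C replicate 2, 8 of the 10 genes had the lower mean under Mn-N/C, and Trp53 and Bax the higher one.

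**Figure D3:**
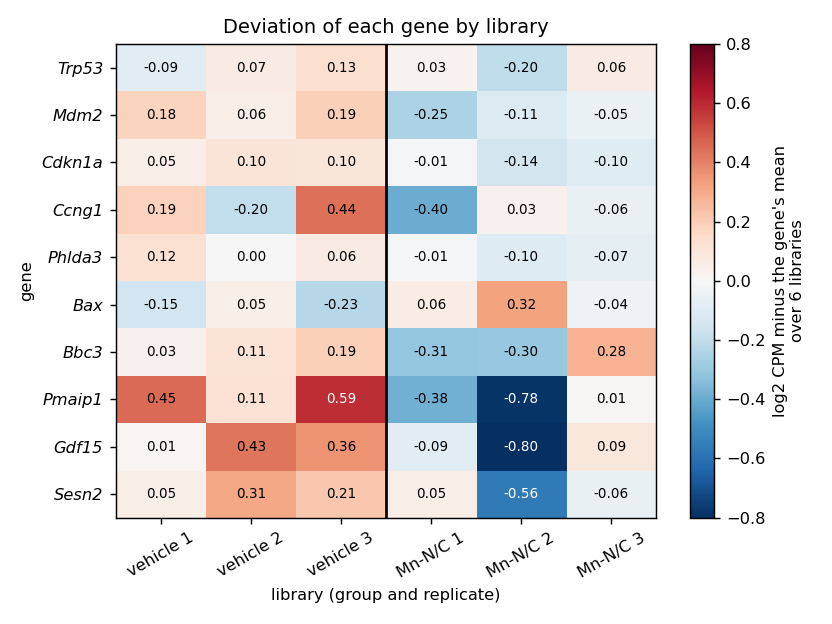
Deviation of each gene (rows) from its own mean over 6 libraries, in log2 CPM, for each library (columns, vehicle left of the line and Mn-N/C right of it), blue for below and red for above the mean. The darkest cells are Gdf15 and Pmaip1 in Mn-N/C replicate 2, at -0.80 and -0.78.

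GC content moved with the groups over the whole table: the median log2 fold change of tested genes was -0.29 in the quintile of genes with the least GC and 0.13 in the quintile with the most. Ccng1 and Pmaip1 belong to the first of these, Mdm2 to the next, and Cdkn1a and Trp53 to the next to last (median 0.10). Bbc3, Bax, Sesn2, Gdf15 and Phlda3 belong to the GC-richest quintile, and 4 of these 5 had lower means. With each library's GC trend removed, 8 of the 10 were lower, and 6 (Cdkn1a, Mdm2, Pmaip1, Gdf15, Sesn2 and Phlda3) were at an unadjusted p under 0.05, as were 15.8% of all genes in that fit. None of the 10 was called in it by edgeR after adjustment. The corrected log2 fold changes were -0.61 for Gdf15, -0.46 for Sesn2, -0.43 for Pmaip1, -0.24 for Cdkn1a, -0.23 for Phlda3 and -0.19 for Mdm2. Those of Bbc3, Trp53 and Bax were -0.31, -0.15 and 0.13.

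**Figure D4:**
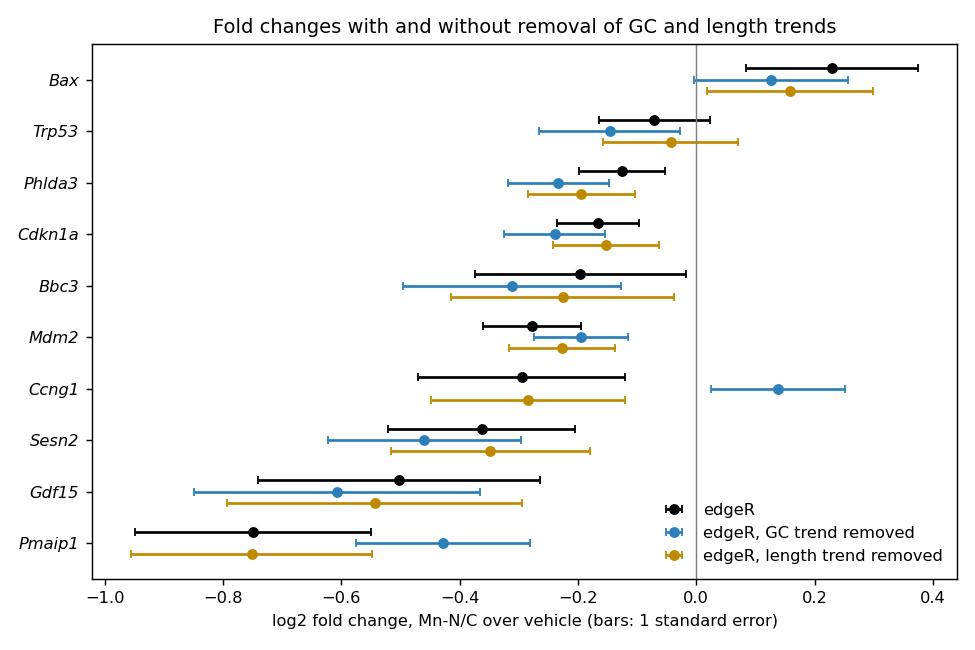
Log2 fold change of Mn-N/C over vehicle for the 10 genes (points, with bars of 1 standard error) in edgeR as fitted and after each library's trend on GC content or gene length was removed. Ccng1 goes from -0.30 to 0.14 without the GC trend, while the other 9 genes keep their side of 0 in all 3 fits.

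Beyond the 10 genes, p53 regulators were mostly lower, with 11 of 14 tested genes below 0 and a median log2 fold change of -0.21. At an unadjusted p under 0.05 were 4 of the 14, all lower, beside 11.1% of all tested genes on that side. Atm, the kinase that activates p53 after double-strand breaks, read 34.1, 27.4 and 37.8 CPM under vehicle and 19.7, 16.9 and 23.6 CPM under Mn-N/C. The Atm groups did not overlap (log2 fold change -0.72, SE 0.162, adjusted p = 0.182 in edgeR, 0.00929 in DESeq2). The others were Rchy1 (log2 fold change -0.20), a further ubiquitin ligase of p53, Ep300 (-0.21), the acetyltransferase p300, and Mdm4 (-0.29), the partner of MDM2. With the GC trend removed Atm was at -0.45, Rchy1 at -0.0044 and Mdm4 at -0.06, and with the length trend removed Ep300 was at -0.03 and Mdm4 at -0.09. The median of the list was -0.02 and -0.10 in these fits, and -0.12 without vehicle replicate 3. Usp7, the deubiquitinase of MDM2 and p53 and the most abundant regulator in FPKM, was at -0.05, and on the other side of 0 in both of these fits. Cdkn2a and the p53 relatives Trp63 and Trp73 had too few reads to be tested, with at most 0.551, 0.315 and 0.122 CPM.

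Further p53 targets lay on both sides of 0. Of 9 growth arrest targets 3 were higher and 6 lower (median log2 fold change -0.11). Gtse1, a microtubule-associated protein that holds p53 back after damage, was higher at 0.36, without overlap of the groups. Cdkn1b, the CDK inhibitor p27, was lower at -0.36, also without overlap. Cdkn1b is listed for its role in growth arrest and is not a classical p53 target. Gadd45a, a growth arrest gene induced by DNA damage, read 50.1 ± 10.6 CPM and 36.5 ± 8.74 CPM (SD, n = 3 each) with overlap, and Trp53inp1 had at most 7.26 CPM (log2 fold change -0.90, with overlap). With the GC trend removed Cdkn1b was at -0.14 and Trp53inp1 at -0.41, Gadd45a was at -0.29 without Mn-N/C replicate 2, and the list median was between -0.16 and 0.03 over all alternatives. Of 13 cell death targets 9 were higher and 4 lower (median 0.05). Rps27l, a ribosomal protein paralog that p53 induces, was at 0.41 with all Mn-N/C libraries above all vehicle libraries, and Aen, a p53-induced exonuclease, was at 0.20. Apaf1, the scaffold of the apoptosome, was at -0.18, and the death receptor Fas, at 1.62 to 2.43 CPM in the group means, at -0.58. With the GC trend removed Rps27l was at 0.69, Apaf1 at -0.07, Aen at 0.13 and Fas at -0.36. None of these genes passed the adjusted threshold in edgeR. DESeq2 called Gtse1, Cdkn1b and Rps27l at adjusted p of 0.0491, 0.0340 and 0.0204, beside 8.91% of all genes to which it gave one.

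Among 8 DNA repair targets 5 were lower (median log2 fold change -0.22). Ercc5, an endonuclease of nucleotide excision repair, was at -0.51 without overlap of the groups, and Polk, a translesion polymerase, at -0.48. Rrm2b, the p53-induced subunit of ribonucleotide reductase, was at -0.42 and the damage sensor Ddb2 at -0.52, both with overlap and Ddb2 at no more than 3.20 CPM. Pcna, the replication clamp, was at 0.08. Among 12 metabolism and autophagy targets 9 were higher (median 0.15). Ddit4, which restrains mTORC1, stood at 131.9, 114.4 and 137.6 CPM under vehicle and at 103.2, 51.3 and 73.4 CPM under Mn-N/C, a log2 fold change of -0.75 with no overlap. On the other side, again without overlap, were Epha2, a receptor tyrosine kinase, at 0.44, Prkab1, a subunit of AMPK, at 0.23 and Tigar, a fructose bisphosphatase that slows glycolysis, at 0.16. In edgeR the smallest adjusted p in each of these lists was 0.182. DESeq2 called Ercc5, Ddit4 and Epha2 at adjusted p of 0.0340, 0.0164 and 0.0387, beside 8.91% of all genes to which it gave one. With the GC trend removed Polk was at -0.22, Rrm2b at -0.05, Pcna at 0.36 and Prkab1 at 0.14, with a repair median of -0.07, and without vehicle replicate 3 Ddb2 was at -0.07.

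BAX, PUMA and NOXA act with other BCL-2 proteins, of which 9 of 12 listed were tested and 5 were lower (median log2 fold change -0.04). Bcl2l11, encoding the BH3-only protein BIM, was at -0.41 without overlap, and the BH3-only gene Bmf was at -0.53 with overlap. Bak1, the other pore-former beside Bax, was also on the higher side at 0.32, with overlap, and at 0.18 without vehicle replicate 3. Mcl1, the anti-apoptotic partner that NOXA binds, read 344.9 ± 12.5 CPM and 315.6 ± 3.68 CPM (SD, n = 3 each), a log2 fold change of -0.13 without overlap. None of the 9 was called by edgeR (smallest adjusted p = 0.182).

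p21 acts on transcription through the DREAM complex, which silences genes of mitosis. Of 14 such genes 11 were higher under Mn-N/C and 3 lower (median log2 fold change 0.24), beside 50.2% of all tested genes on the higher side. At an unadjusted p under 0.05 were 8 higher and 1 lower, and in 8 every Mn-N/C library was above every vehicle library, against 9.82% and 14.2% of all tested genes. Ccnb2, a mitotic cyclin, read 86.7, 89.2 and 86.9 CPM under vehicle and 108.1, 109.8 and 102.4 CPM under Mn-N/C, a log2 fold change of 0.29 (SE 0.0675, adjusted p = 0.182 in edgeR, 0.0197 in DESeq2). Plk1, the mitotic kinase, was at 0.44, Birc5, which encodes survivin, at 0.29 and Ccnb1 at 0.23, all without overlap. DESeq2 also called Plk1, Birc5, Ccnb1, Cdk1 and Foxm1, beside 8.91% of all genes to which it gave an adjusted p. Top2a, the most abundant of the list in FPKM, went the other way at -0.19 with overlap, and at 0.08 once the GC trend was removed. Also lower, both with overlap, were Mki67 (log2 fold change -0.47, unadjusted p = 0.0427 in edgeR) and Bub1 (-0.33). Mki67 was the 1 lower gene at an unadjusted p under 0.05. Levels of these genes can follow the share of dividing cells, and here 11 were higher and 3 lower. Their relation to that share and to the Cdkn1a level was not tested.

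Gdf15, Sesn2 and Pmaip1 are also induced by the integrated stress response, the ATF4 pathway, so its genes were read beside them. Of 12 such genes 10 were lower and 2 higher (median log2 fold change -0.51), 9 of them lower at an unadjusted p under 0.05 (11.1% of all tested genes), and in 4 every Mn-N/C library was below every vehicle library (12.1% of all tested genes). The median was -0.39 without Mn-N/C replicate 2. Ppp1r15a, the phosphatase subunit GADD34, read 62.0, 70.8 and 68.3 CPM under vehicle and 50.0, 34.0 and 50.1 CPM under Mn-N/C (log2 fold change -0.59, SE 0.148, adjusted p = 0.182 in edgeR, 0.0166 in DESeq2). The transcription factors Atf3 and Ddit3 were at -0.78 and -0.69 and the chromatin protein Nupr1 at -0.48, each without overlap and each lowest in Mn-N/C replicate 2, without which Ddit3 was at -0.45. For Ddit3 the paper reports the other direction, a higher RNA level under Mn-N/C by real-time PCR. Its material was tumor cells sorted from ovalbumin-expressing MC38 tumors, whereas the libraries here are bulk tissue. Atf4 itself, which is controlled mainly in translation, was at -0.02, and its sign turned without vehicle replicate 2 (0.07) or without Mn-N/C replicate 2 (0.03). In edgeR none of the 12 was called. DESeq2 called Atf3, Nupr1 and Ddit3 as well as Ppp1r15a, beside 8.91% of all genes to which it gave an adjusted p.

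**Figure D5:**
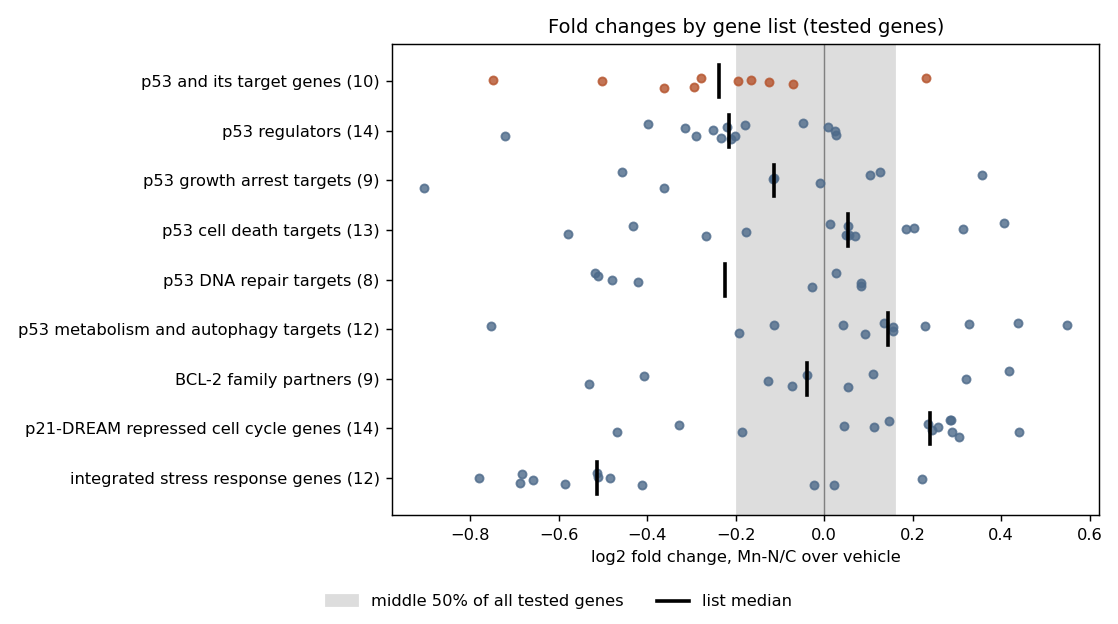
Log2 fold change of Mn-N/C over vehicle for every tested gene of each list (points, number of tested genes in parentheses), with the list median as a black bar and the middle 50% of all tested genes (-0.20 to 0.16) shaded. Medians run from -0.51 in the integrated stress response list to 0.24 in the p21-DREAM list, and that of the 10 genes is -0.24.

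The genes whose course over the 6 libraries was most like that of Trp53 were Hbs1l, Agbl5 and Arpc5l, among 9237 genes with a mean of at least 10 CPM. Likeness was the root mean square distance between deviations from the gene's own mean in log2 CPM, and it was 0.0236, 0.0248 and 0.0270, against an SD of 0.122 for Trp53 across libraries. For Cdkn1a the nearest were Mroh1, Cramp1 and Vps13d, at 0.0167, 0.0198 and 0.0221, against its own SD of 0.102. None of these 6 genes is another of the 10 or stands in a list used here.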

How the data were processed

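RNA of MC38 tumor pieces was sequenced in 6 libraries, 3 given vehicle and 3 given Mn-N/C. The authors deposited whole-number read counts for each gene, not normalized and not pooled. The FPKM values were computed by the authors from these counts, gene length and library total. HISAT2 2.0 and mm10 are named in the submitters' processing notes. How reads were assigned to genes, and whether by strand, is not given in the sources used here. Gene coordinates are as the table gives them, with no build named in it: none of the 10 genes has the coordinates of the GRCm38 annotation, although all 10 spans have the same length, and none was converted. Promoter windows are from RefSeq (GRCm38.p6) and matched 9 of the 10 genes by symbol. Pmaip1 was not matched and is only named. Of the table, 1 line was empty and is not analysed here.

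edgeR 4.0.16 (R 4.3.3) was run on the counts with TMM scaling, its default filterByExpr and a quasi-likelihood F test of the group, with no covariate, over 12800 genes, with p-values adjusted by the Benjamini-Hochberg method over all of them and a threshold of 0.05. No gene passed it, so the further limit of 1.8 on the log2 fold change left none either. The common biological coefficient of variation was 0.165. The standard errors given with edgeR were derived from its test, as the absolute log2 fold change divided by the square root of F. All 95% intervals extend this standard error by a t quantile on the total degrees of freedom of the test. A count of 3 reads is worth 0.158 to 0.200 CPM, as counting error only. Every pair of replicates differed beyond the noise of sampling (chi-square per degree of freedom 6.56 to 27.0), so no library was treated as a copy.

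Alternatives were DESeq2 1.42.0, RLE and upper quartile scaling, other filters, limma 3.58.1 on log2(FPKM + 1) or log2(FPKM + 0.1), removal of each library's loess trend (span 0.5) on GC content (known for 12783 genes) or length, the replicate number as a block, and each library left out. The 10 genes and all gene lists were chosen with earlier results of these data known. Of each list the text names up to 4 tested genes with the smallest p and the gene with the highest mean FPKM. Further genes are named only where a count needed them. These are Trp63, Trp73 and Cdkn2a (not tested), Mki67 and Bub1 (lower), and Cdk1 and Foxm1 (called by DESeq2).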

Additional observations from a re-analysis of the deposited data

How the results depend on the processing

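With 3 libraries per group, edgeR called 0 of the 12800 tested genes, so a gene of the 10 that missed the threshold is not shown to be unaffected. Of the values for single genes, list medians and counts over all genes under alternatives, 999 were unchanged. Another 64 (60 of them medians, the others counts) moved, 24 passed the threshold and 11 changed sign. A single gene was unchanged when it kept its direction and side of the threshold. A median was unchanged within the SD of its values with each library left out, and a count when close to that of the main fit. DESeq2 called 1 of the 10 genes and 787 of all genes, and limma on log2(FPKM + 1) without a filter called 1 gene. Of the 10 genes, 2 were at an unadjusted p under 0.05 with upper quartile scaling or with the length trend removed, beside 20.98% and 17.38% of all genes. Leaving out each library in turn gave 0 to 583 called genes (583 without vehicle replicate 2, none of them among the 10), 2 to 4 of the 10 at an unadjusted p under 0.05 (10.8% to 29.1% of all genes), and 4 to 7 of the 10 without overlap (30.9% to 48.1% of all genes). With FPKM in place of CPM, chosen after seeing the data, 5 of the 10 did not overlap (26.5% of all genes). List medians ranged over all alternatives from -0.33 to -0.16 for the 10 genes, -0.26 to -0.02 for regulators, -0.16 to 0.03 for growth arrest, 0.02 to 0.08 for cell death, -0.29 to -0.04 for repair, 0.08 to 0.17 for metabolism, -0.12 to 0.00 for BCL-2 partners, 0.21 to 0.27 for p21-DREAM and -0.65 to -0.39 for the integrated stress response.

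Signs changed as follows on the log2 scale. With each library left out in turn the Trp53 log2 fold change ran from -0.12 to 0.0122 (without Mn-N/C replicate 2) and the Atf4 log2 fold change from -0.0785 to 0.0713 (without vehicle replicate 2). Ccng1 was at 0.14, Usp7 at 0.12 and Top2a at 0.0829 without the GC trend, and Usp7 was at 0.0497 without the length trend. The cause was not tested.

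The deviations of same-numbered libraries of the 2 groups had correlations of -0.15, -0.01 and 0.12 for numbers 1, 2 and 3. Not every library correlated best with its own number. With 3 libraries per group, these values cannot show whether the numbers mark pairs. With the replicate block edgeR called 0 genes, and 3 of the 10 were at an unadjusted p under 0.05 (23.3% of all genes). With the replicate block and the length trend removed it called 71 genes, among them Pmaip1 (adjusted p = 0.0213 in edgeR), 1 of the 10. With the block, Ccng1 was at 0.13, Usp7 at 0.12 and Top2a at 0.0815 without the GC trend, and Usp7 at 0.0508 without the length trend.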
